A study of Mus musculus with 6 samples.

Results

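RefSeq non-coding transcripts are curated RNAs that carry an NR accession because no protein product is annotated for them. On these mouse arrays 1393 non-control probes of 150305 had such an accession, and they stood for 1098 symbols; 0 probes had the model accession prefix XR. A probe was kept where the scanner software flagged its signal as well above background in at least 3 samples of 6. This left 829 probes (59.5% of 1393), which named 661 symbols and are called the non-coding probes below. Of the 829, 720 were well above background on all 6 arrays, and 17 passed through 1 group alone (16 through Sham and 1 through DJB). Those 17 passed only through the group in which their signal was high, and 7 of them are among the calls counted below. Type was read from the gene name and description. There were 55 antisense probes, 24 host gene probes, 40 pseudogene probes, 12 small RNA probes, 64 probes of non-coding variants of coding genes and 634 others. In RefSeq's gene annotation, 590 of the 829 probes belonged to long non-coding RNA (lncRNA) genes, 141 to transcribed pseudogenes, 65 to protein-coding genes and 5 to snoRNA genes, and 22 had no match.

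The tissue was abdominal adipose tissue of C57BL/6 mice, a strain that becomes obese and hyperglycaemic on a fat-rich diet. All 6 samples came from animals that began a high-fat diet at an age of 6 weeks and were operated on after 12 weeks of it. The 3 DJB samples had duodenal-jejunal bypass, which reroutes food past the upper small intestine, with a biliopancreatic limb of 5 cm and a Roux limb of 4 cm. The 3 Sham samples had the incision and the intestinal cuts, closed again in place. The labels name buprenorphine, at 0.15 mg/kg, in describing the DJB operation and give no dose for Sham. The labels do not give the depot, the time between surgery and sampling, the sex, or whether each sample is 1 animal, so each p-value reflects only how far these samples spread, which may be technical.

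Many long non-coding RNAs are spliced and polyadenylated, and they often stay in the nucleus. Some act on neighbouring genes, some build nuclear bodies, and some serve mainly as precursors from whose introns or exons small RNAs are cut. An antisense RNA runs over the opposite strand of a coding gene, and a divergent RNA starts beside a coding gene's start and runs the other way. Transcribed pseudogenes are copies of coding genes that have lost their reading frame, and a non-coding variant is a splice form of a coding gene that RefSeq does not expect to be translated. Adipose tissue contains adipocytes, their precursors, vessels with smooth muscle, mesothelium and immune cells, and many lncRNAs differ in level between such cell types.

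The probes are 60 bases long and were compared on their own strand with the annotation: for the 340 non-coding probes with a position and a strand for both, the probe lay on the gene's strand in 340. Probe sequences are shown for the transcripts on which the results turn, and positions are those in the array files (mm9). The first set shows pairs of probes to 1 transcript, with the bases both probes hold in capitals. Gm5577 is an lncRNA gene of chromosome 6 whose 2 probes both fell, and they share 30 bases.
Gm5577 probe 1: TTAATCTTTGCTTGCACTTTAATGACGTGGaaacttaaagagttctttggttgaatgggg
Gm5577 probe 2 (chr6:87933367-87933426, plus strand): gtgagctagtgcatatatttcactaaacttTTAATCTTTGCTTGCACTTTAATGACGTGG
The probes of A930004D18Rik, which also both fell, share 51 bases.
A930004D18Rik probe 1 (chr2:17946831-17946890, minus strand): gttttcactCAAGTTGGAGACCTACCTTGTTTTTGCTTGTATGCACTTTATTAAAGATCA
A930004D18Rik probe 2: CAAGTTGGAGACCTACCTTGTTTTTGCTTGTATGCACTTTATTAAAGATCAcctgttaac
The probes of 1700001G17Rik share 48 bases, yet only the second passed the test.
1700001G17Rik probe 1: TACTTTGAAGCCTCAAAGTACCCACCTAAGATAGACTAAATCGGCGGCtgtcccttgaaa
1700001G17Rik probe 2 (chr1:33727483-33727542, plus strand): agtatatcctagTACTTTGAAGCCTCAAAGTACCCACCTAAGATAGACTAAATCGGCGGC
The second set shows probes of RNAs described with a neighbouring gene or a cluster, and has no capitals because no stretch is compared.
2810032G03Rik (chr12:5422738-5422797, plus strand): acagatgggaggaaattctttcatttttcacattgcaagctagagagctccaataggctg
B930025P03Rik (chr8:10871900-10871959, minus strand): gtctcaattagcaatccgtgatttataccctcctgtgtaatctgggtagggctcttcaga
Snhg14 (chr7:67114478-67114537, minus strand): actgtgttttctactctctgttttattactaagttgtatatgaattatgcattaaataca
E230016K23Rik (chr11:83436399-83436458, plus strand): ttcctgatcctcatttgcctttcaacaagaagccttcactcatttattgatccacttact
1110046J04Rik (chr13:34051862-34051921, plus strand): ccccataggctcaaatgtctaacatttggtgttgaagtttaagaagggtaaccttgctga

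Across the series, the 75th percentile of the processed signal was 176 to 184 intensity units in Sham and 132 to 165 in DJB. Between 62.6% and 68.8% of probes were well above background on an array. Over the 829 non-coding probes the arrays correlated at r = 0.965 to 0.988 within a group and at 0.926 to 0.977 between groups. Sham-3 correlated at 0.977 with DJB-3, at 0.965 with Sham-1 and at 0.974 with Sham-2. Sham-1, Sham-3, DJB-1 and DJB-2 were on 1 slide, and Sham-2 and DJB-3 were on another.

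Several marker lists for cell types moved with the surgery, and their part in the results below was not tested. Among adipocyte markers 3 of 10 fell, with a mean log2 level over the list of 8.15 to 8.44 on the 3 Sham arrays against 6.77 to 7.72 on the 3 DJB arrays. Among macrophage markers 4 of 10 rose, from 6.91 to 7.36 on the Sham arrays to 7.79 to 8.04 on the DJB arrays. Mesothelial markers (2 of 9 lower) lay at 3.94 to 4.30 and 1.77 to 3.26, skeletal muscle markers (5 of 9 lower) at -0.16 to 0.15 and -1.51 to -1.18, and liver markers (4 of 10 lower) at -0.63 to -0.09 and -1.15 to -0.88. B cell markers (0 of 8 called) lay at -0.33 to 1.21 and -1.87 to -0.13. Pancreatic acinar markers (0 of 8 called) lay at 0.20 to 1.95 and -0.45 to 0.92, and epididymal markers (0 of 4 called) at -4.50 to -2.07 and -4.58 to -3.28. Of the defining markers, Myh4 of skeletal muscle and Defb48, Lcn8 and Spinkl of epididymis were not well above background on any DJB array. On the Sham arrays the same held for 1 skeletal muscle marker and 0 epididymal markers. In bulk tissue fewer cells of a type and less RNA per cell cannot be told apart.

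The comparison of DJB with Sham asks how adipose transcripts differed after bypass surgery in animals given the same diet before it. Far more non-coding probes fell than rose: 67 were lower after DJB (59 symbols) and 8 were higher (7 symbols). Among named falls measured on all 6 arrays the largest was 9.10-fold, for the lncRNA gene Gm5627, and the largest rise was 2.62-fold, for a non-coding variant of Adamtsl5. Levels are log2 processed signal minus each array's 75th percentile, a difference is DJB minus Sham on that scale, and a probe is called where limma's adjusted p (Benjamini-Hochberg over all 99431 tested probes) is under 0.05. A symbol is shown by its non-coding probe with the highest mean over the arrays. Of the called probes, 40 were at least 2-fold lower by the fitted difference and 4 at least 2-fold higher, and the smallest adjusted p of limma among the members was 0.00959.

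The called share of the non-coding probes was 9.05%, against 5.00% of all tested probes, 7.09% of RefSeq mRNA probes and 2.82% of NONCODE probes, which are lncRNA models from another database. Lower probes made up 8.08% of the non-coding set, 3.15% of all tested probes, 5.18% of mRNA probes and 2.16% of NONCODE probes. Higher probes made up 0.965%, 1.84%, 1.91% and 0.668% of the same sets. Falls outnumbered rises in the non-coding, mRNA and NONCODE sets and among Ensembl probes (4.44% lower, 0.621% higher). The 31961 interval and other probes went the other way (1.06% lower, 2.78% higher) and weigh on the shares over all tested probes. The difference between the sets was not tested. The median difference was -0.08 over the non-coding probes, 0.08 over all tested probes and 0.03 over mRNA probes. The sign of the first turned under 2 other scalings (0.06 with normexp background correction and 0.02 with scaling to the median), while it stayed below the median of all tested probes, which moved to 0.12 and 0.19.

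The groups did not overlap for 317 non-coding probes (38.2%, against 36.1% of all tested probes). They were lower after DJB for 218 of these (26.3%, against 14.2%) and higher for 99 (11.9%, against 21.9%). All 75 called probes were among them. At an unadjusted p under 0.05, 197 probes were lower and 77 higher.

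The falls were spread over the range of signal. In 4 nearly equal groups of non-coding probes by mean level, from dim to bright, 15, 19, 18 and 15 probes were lower (7.21%, 9.18%, 8.70% and 7.25%), against 3.20%, 2.81%, 3.01% and 3.48% of all tested probes in the same ranges. The rises numbered 0, 1, 1 and 6, so the brightest group held most of them. The median difference went from -0.27 in the dimmest group to 0.03 in the brightest (-0.01 to 0.12 for all tested probes). The median GC content of the probes was 38.3% for those called lower, 45% for those called higher, 41.7% for all non-coding probes and 45% for all tested probes, and the part of base composition was not tested.

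The counts rested on all 6 arrays. Leaving out Sham-1 gave 0 lower calls, leaving out Sham-2 gave 3 and leaving out Sham-3 gave 37. Leaving out DJB-1 gave 11, DJB-2 gave 2 and DJB-3 gave 49. Higher calls numbered 1 when Sham-3 was dropped, 5 when DJB-3 was dropped and 0 in the other 4 fits. At an unadjusted p under 0.05, the fit without Sham-1 still had 144 lower and 51 higher probes. A fit blocked on slide called 9 lower and 0 higher (199 and 77 at an unadjusted p under 0.05). The naming rule gave 30 called symbols, of which 23 fell and 7 rose. With an array left out, 1700108F19Rik kept its call in 4 of the 6 fits, and Gm2694 and 2810032G03Rik in 3 each. Gm5577 kept its call in 5, but it passed the filter through Sham alone. The other 26 kept theirs in 2 or fewer, and the fit without Sham-1 kept 0 of the 30. The 10 further called symbols named below, chosen after their values were seen, kept the calls of their 15 probes in 3 or fewer of the 6 fits, and 1 of the 15 with slide as a block. None of these calls changed direction in the settings run.

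The size of many falls of dim probes depended on the background correction. Normexp correction adds an offset of 50 to the signal, which shrinks differences between dim values by construction. It kept 19 of the 30 calls. The 11 it lost, all falls, had differences of -0.57 for NR_002845, -0.05 for Gm5577, -0.31 for 8430430B14Rik, -0.33 for B930025P03Rik and -0.28 for 4933431E20Rik. They were -0.09 for Gm4759, -0.19 for Gm11346, -0.27 for A930001C03Rik, -0.27 for C4bp-ps1, -0.19 for 4930523C07Rik and -0.21 for Spn. Calls that held at over 1.5 times smaller size included Gm5627 (-1.50), Gm2694 (-0.75), 2810032G03Rik (-0.66), Gm3002 (-0.49), 1700108F19Rik (-0.91), Snhg14 (-0.87), Stamos (-0.62), Dipk2b (-0.38) and the rise of E230016K23Rik (0.43). Gm8096 (-2.07), 2610016A17Rik (-1.83), Clmn (-1.64) and Carmn (-1.39) kept nearly their full size. Of the 15 probes of the 10 further symbols 13 kept their call.

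Among the transcripts that fell the most were several lncRNA genes with no established function. Gm5627, an lncRNA gene of chromosome 9, had levels of 0.55, -0.52 and 0.03 for Sham and -4.26, -2.94 and -2.30 for DJB. All 3 Sham arrays were above all 3 DJB arrays, and the difference was -3.19 ± 0.53 (SE, n = 3 and 3; limma adjusted p = 0.0368). NR_002845, which had no match in the gene table, gave -2.54, -1.38 and -1.90 against -7.02, -5.09 and -4.23, and it was well above background on 1 DJB array alone. Its fitted difference of -3.51 ± 0.72 (limma adjusted p = 0.0498) therefore rests on DJB signal near background. It was -0.57 with normexp background correction (limma adjusted p = 0.0511), and the call was also lost with quantile normalization, with scaling to the median and in the authors' values.

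For Gm5577 the signal was at the edge of detection. The probe that stands for it here, the first of the pair printed above, gave -3.47, -3.79 and -3.37 in Sham and -6.37, -6.70 and -5.90 in DJB, where it was never well above background. With normexp its difference was -0.05 (limma adjusted p = 0.624). Such a probe has only a bound in the dim group, and on the processed signal its fall was at least 2.33-fold. The limma adjusted p of 0.0108 is that of its fitted difference and not of the bound. The bound sets the Sham mean against the lowest signal that counted as well above background on each DJB array, or the probe's own signal where that was higher. The second probe, which shares 30 bases with it, fell at least 1.53-fold (limma adjusted p = 0.0130 for its fitted difference).

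3 more of the named falls have only a bound, since no DJB array had the probe well above background. Like Gm5577 they passed the filter through Sham alone. Each bound holds for the processed signal, and each p-value is that of the fitted difference and not of the bound. With normexp none was called, at -0.31 for 8430430B14Rik, -0.33 for B930025P03Rik and -0.09 for Gm4759. 8430430B14Rik, an lncRNA gene of chromosome 17, had Sham levels of -1.79, -2.83 and -3.71 and fell at least 3.96-fold (limma adjusted p = 0.0440). B930025P03Rik, an lncRNA gene of chromosome 8 whose probe is printed above, had Sham levels of -2.05, -3.15 and -2.44 and fell at least 4.57-fold (limma adjusted p = 0.0283). Its nearest coding gene is Irs2, an adaptor of the insulin receptor, whose own difference was -0.55 (limma adjusted p = 0.287). The pseudogene Gm4759 fell at least 2.46-fold (limma adjusted p = 0.0309).

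Among probes that were measured in both groups, Gm2694 on chromosome 8 went from -0.83, -1.15 and -1.43 to -3.66, -3.11 and -3.35, a 4.72-fold fall (-2.24 ± 0.21, limma adjusted p = 0.0139). 2810032G03Rik on chromosome 12 went from -0.97, -1.38 and -0.95 to -3.79, -3.13 and -2.98, a 4.59-fold fall (-2.20 ± 0.25, limma adjusted p = 0.0206). In both, the arrays of a group lay close together beside the gap between the groups. 1700108F19Rik on chromosome 14 had the smallest adjusted p of the non-coding probes. Its levels were -0.56, -0.70 and -0.52 on the 3 Sham arrays against -2.75, -2.50 and -2.28 on the 3 DJB arrays, a difference of -1.92 ± 0.15 and a 3.78-fold fall. Serp2, its nearest coding gene, which codes for a stress-associated protein of the endoplasmic reticulum, also fell (-1.09, limma adjusted p = 0.0242). A930001C03Rik on chromosome 19 fell 3.40-fold (-1.77 ± 0.20, limma adjusted p = 0.0219), a call lost with normexp at -0.27 (limma adjusted p = 0.0922). 4933431E20Rik on chromosome 3 was well above background on 1 DJB array alone. Its fitted difference was -2.09 ± 0.31 (limma adjusted p = 0.0314), against -0.28 with normexp (limma adjusted p = 0.109).

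The share of pseudogene probes called lower depended on how they were read. Of all tested probes 3.15% were lower and 1.84% higher. Read by gene name and description, 1 of 40 pseudogene probes was lower (2.50%) and 0 were higher, with a median of 0.13. The RefSeq biotype counts more genes as pseudogenes. By it 9 of 141 transcribed pseudogene probes were lower (6.38%) and 2 higher (1.42%), with a median of 0.00. Gm8096 on chromosome 8 had levels of 4.14, 3.56 and 4.17 for Sham and 1.26, 1.88 and 2.40 for DJB. The groups were apart by more than 1 log2 unit, and the fall was 4.32-fold (-2.11 ± 0.32, limma adjusted p = 0.0322). Gm3002 on chromosome 14 went from -1.76, -1.84 and -1.85 to -4.61, -4.05 and -3.17, a 4.36-fold fall (limma adjusted p = 0.0361). Its second probe gave -1.39 (limma adjusted p = 0.0338). Gm11346 on chromosome 13, well above background on 1 DJB array, had a fitted difference of -1.95 (limma adjusted p = 0.0458), against -0.19 with normexp. Its call was lost with normexp, with quantile normalization, with scaling to the median and in the authors' values.

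C4bp-ps1, a pseudogene copy of the complement regulator C4bp, went from -1.59, -1.98 and -2.15 to -3.21, -2.90 and -3.28. This was a 2.33-fold fall (-1.22 ± 0.19, limma adjusted p = 0.0327), while its other 2 probes gave -1.11 and -0.77 and were not called. Pseudogenes can share bases with their parents, and cross-hybridization to near-identical copies was not tested. Of the 829 non-coding probes, 69 held a stretch of at least 30 bases that also lies in a probe of another name, 0 of these with an mRNA probe, and 6 of the 69 were called: Gm5627, Gm2694, 1700108F19Rik, Stamos, E230016K23Rik and 1110046J04Rik.

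2 transcripts known from immune cells were among the falls. AW112010, an interferon-induced transcript of immune cells, had levels of 4.63, 4.53 and 4.53 in Sham and 3.51, 3.98 and 3.65 in DJB. The Sham arrays lay close together and above all DJB arrays, and the fall was 1.80-fold (-0.85 ± 0.15, limma adjusted p = 0.0392). A second probe gave -0.75 (limma adjusted p = 0.0473). H2-Q5, a class Ib gene of the mouse major histocompatibility complex that RefSeq lists as a transcribed pseudogene, went from 4.39, 4.13 and 4.26 to 2.96, 3.38 and 3.16, a 2.14-fold fall (limma adjusted p = 0.0276), with -1.53 at its second probe (limma adjusted p = 0.0395). Its close relatives H2-K1 (-0.07), H2-D1 (0.06) and H2-Q4 (-0.08) were not called, and signal shared among such similar genes makes the value of H2-Q5 uncertain. AW112010 and H2-Q5 were chosen after their values were seen.

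8 probes of 7 symbols rose. A non-coding variant of Adamtsl5, a secreted matrix protein of the ADAMTS-like family, went from 0.43, 1.08 and 1.08 to 2.25, 2.22 and 2.29. All DJB arrays were above all Sham arrays and close together, and the rise was 1.39 ± 0.20 (limma adjusted p = 0.0288). 1810013A23Rik, which overlaps the nuclear receptor gene Ppard on the same strand, went from -0.83, -0.70 and -0.50 to 0.48, 0.15 and 0.88, a 2.26-fold rise (1.18 ± 0.21, limma adjusted p = 0.0402). Ppard itself gave 0.27 (limma adjusted p = 0.510). 5730416F02Rik, a transcribed pseudogene on the X chromosome, went from 4.80, 5.16 and 5.32 to 6.46, 5.89 and 6.09. Its rise was 2.08-fold (1.05 ± 0.21, limma adjusted p = 0.0462), with 1.01 at a second probe (limma adjusted p = 0.0375).

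The other 4 rises were smaller. E230016K23Rik rose 1.86-fold, from -3.05, -3.06 and -2.73 to -1.94, -1.88 and -2.32 (0.90 ± 0.17, limma adjusted p = 0.0442). 1110046J04Rik rose 1.62-fold, from 0.96, 1.26 and 1.19 to 1.94, 1.72 and 1.84 (0.70 ± 0.13, limma adjusted p = 0.0435). AI662270 rose 1.67-fold, with the DJB arrays at 1.81, 1.79 and 1.84 (limma adjusted p = 0.0486). A non-coding variant of Prmt6, an arginine methyltransferase, rose 1.44-fold, from 3.72, 3.75 and 3.68 to 4.16, 4.29 and 4.28 (0.53 ± 0.10, limma adjusted p = 0.0463), while its other non-coding probe gave 0.16 and was not called. The call of Prmt6 was lost with quantile normalization, in the authors' values and with the mean of the symbol's probes. The DJB arrays were above the Sham arrays in all 4 of these rises.

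Non-coding variants of coding genes can be set beside the mRNA probe of the same gene. Of the 64 such probes by name and description 5 were lower (7.81%) and 2 higher, with a median of -0.09. Of all tested probes 3.15% were lower and 1.84% higher, and of mRNA probes 5.18% and 1.91%. For Clmn, which codes for an actin-binding membrane protein, the non-coding variant went from 2.52, 1.96 and 2.34 to -0.29, 0.61 and 0.97. This was a 3.59-fold fall (-1.84 ± 0.34, limma adjusted p = 0.0428), and the mRNA fell too (-2.47 ± 0.43, limma adjusted p = 0.0395). In 4930523C07Rik both fell as well, with differences of -0.80 (limma adjusted p = 0.0423) and -0.74 (limma adjusted p = 0.0456). Its second non-coding probe gave -0.45 ± 0.36 and was not called (limma adjusted p = 0.457). The call of the first was lost with normexp, with quantile normalization and with scaling to the median. It was also lost in the authors' values and with the mean of the symbol's probes.

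In the other called variants the mRNA probe shown, the brightest of its gene, was not called. The variant of Dipk2b, a gene with a divergent protein kinase domain, fell by 0.96 (limma adjusted p = 0.0322), beside -0.71 for the mRNA (limma adjusted p = 0.132). The variant of Spn, the leukocyte surface protein CD43, fell by 0.77 (limma adjusted p = 0.0453), beside -0.25 for the mRNA (limma adjusted p = 0.357). Rbmx, an RNA-binding protein gene, is named here because it completes the 5 falls. Of its 2 non-coding probes 1 fell by 0.67 (limma adjusted p = 0.0341), beside 0.19 for the mRNA (limma adjusted p = 0.290). The other gave -0.50 and was not called (limma adjusted p = 0.0631). The Adamtsl5 mRNA gave 0.59 (limma adjusted p = 0.0938) and the Prmt6 mRNA 0.19 (limma adjusted p = 0.655). Other mRNA probes of these genes differed. Those of Dipk2b ranged from -1.19 to -0.71, of Spn from -0.25 to -0.01 and of Rbmx from -0.12 to 0.22. For Adamtsl5 the range was 0.59 to 0.71, and for Prmt6 it was 0.19 to 0.53. The difference between a variant and its mRNA was not tested. A variant probe can also lie in exons that both forms share.

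Of 55 antisense probes by name 1 was lower (1.82%, against 3.15% of all tested probes) and 0 were higher, with a median of -0.06. The one that fell was Stamos, which starts beside Stam, a gene for an endosomal sorting adaptor, on the opposite strand. It went from -0.44, -0.77 and -1.21 to -1.84, -2.07 and -1.97, a 2.22-fold fall (-1.15 ± 0.21, limma adjusted p = 0.0419), whereas Stam gave 0.23 (limma adjusted p = 0.264). Of 40 RNAs that are antisense by name and whose sense gene was also tested, the sense gene was lower in 2 and higher in 1. These pairs were made by name, and not all of them overlap in the gene table. Stamos and Lhx1os only start beside their gene, and Ctcflos has no listed overlap with Ctcfl. The sign was negative for both partners in 13 pairs and positive for both in 9.

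In those 3 pairs with a called sense gene, the antisense RNA was not called. Ctcfl, a germline paralogue of the insulator protein CTCF, fell by 1.24 (limma adjusted p = 0.0362), with Ctcflos at -1.54 ± 0.39 (limma adjusted p = 0.0713). Igf2, the imprinted growth factor gene, fell by 1.21 (limma adjusted p = 0.0392), with Igf2os at 0.09. Fam219a rose by 1.01 (limma adjusted p = 0.0275), with Fam219aos at 0.19.

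For some RNAs the Sham arrays disagreed widely. Lhx1os, which starts beside the homeobox gene Lhx1 on the opposite strand, had 1.88, 0.82 and -3.44 on the 3 Sham arrays against -6.93, -6.83 and -3.21 on the 3 DJB arrays. Sham-3 lay below DJB-3, and DJB-1 and DJB-2 were not well above background. It was not called (limma adjusted p = 0.0992), and no fold is given. 3 other transcripts, chosen after their values were seen, had the same order of Sham arrays: 1600029I14Rik (2.84, 1.89 and -5.45), the second probe of C230072F16Rik (0.51, -0.70 and -7.35) and Pantr1 (0.30, -0.63 and -4.92). Their DJB levels were -6.44, -6.96 and -1.32 for 1600029I14Rik, -7.16, -6.97 and -4.44 for C230072F16Rik, and -5.14, -4.55 and -4.06 for Pantr1. The limma adjusted p-values were 0.280, 0.295 and 0.216. The probe that stands for C230072F16Rik gave -0.91 (limma adjusted p = 0.112).

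Copg2os2, which is antisense within the imprinted Mest and Copg2 region, had -1.54, -0.10 and -1.23 against -5.75, -3.38 and -2.43. The groups did not overlap and 2 of the DJB arrays were well above background, but the difference of -2.90 ± 0.87 was not called (limma adjusted p = 0.0980). Beside it Mest, a gene whose adipose level tracks fat mass expansion in mice, fell by 3.41 (limma adjusted p = 0.0286), and Copg2 gave 0.18 (limma adjusted p = 0.640).

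Position in the RefSeq gene table gave a wider view of partners than the names. Of the non-coding symbols, 390 had a position and a strand, 137 overlapped a coding gene on the opposite strand, and 120 started within 1000 bases of a coding gene's start and ran the other way. For 34 called falls a coding partner was tested, by overlap, by divergent start or as the nearest gene, and 5 of those partners fell and 0 rose, with a median partner difference of -0.13. For the 315 uncalled symbols 17 partners fell and 2 rose, with a median of 0.01. Among all 17820 coding genes tested, with 1 probe each, 6.02% were lower and 1.45% higher.

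Divergent partners held 3 of the 5 falls, out of 10 divergent pairs with a called non-coding fall. 2610016A17Rik, an lncRNA of chromosome 19, went from 5.04, 4.25 and 4.96 to 2.69, 2.84 and 3.30, a 3.50-fold fall (-1.81 ± 0.27, limma adjusted p = 0.0306). Dmrt2, a DM-domain transcription factor gene whose start lies 172 bases away, fell by 2.16 ± 0.17 (limma adjusted p = 0.0101). 2810032G03Rik starts 38 bases from Klhl29, a kelch-family gene, which fell by 0.76 ± 0.12 (limma adjusted p = 0.0344). A430035B10Rik fell 1.71-fold (-0.77 ± 0.13, limma adjusted p = 0.0361), and Glcci1, a glucocorticoid-induced gene whose start lies 439 bases away, fell by 0.99 ± 0.19 (limma adjusted p = 0.0467). For Gm5577 the divergent partner is H1f10, a linker histone gene, and it gave -0.04 ± 0.12 (limma adjusted p = 0.855).

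The promoters of these 3 RNAs are shown because each window also holds part of the partner's promoter. They come from RefSeq (GRCm38.p6), are 300 bases around the start on the strand of the RNA, and have in capitals each CCAAT or GGGCGG found on either strand. The window shares 271 bases with that of Dmrt2 for the first, 137 with that of Klhl29 for the second and 62 with that of Glcci1 for the third.
2610016A17Rik promoter (chr19:25672190-25672489, minus strand): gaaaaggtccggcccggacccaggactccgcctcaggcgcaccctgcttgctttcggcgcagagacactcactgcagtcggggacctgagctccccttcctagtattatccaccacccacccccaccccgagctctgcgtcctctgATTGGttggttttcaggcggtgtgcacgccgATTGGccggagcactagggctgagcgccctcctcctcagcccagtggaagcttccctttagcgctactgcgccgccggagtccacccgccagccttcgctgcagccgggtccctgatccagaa
2810032G03Rik promoter (chr12:5375470-5375769, plus strand): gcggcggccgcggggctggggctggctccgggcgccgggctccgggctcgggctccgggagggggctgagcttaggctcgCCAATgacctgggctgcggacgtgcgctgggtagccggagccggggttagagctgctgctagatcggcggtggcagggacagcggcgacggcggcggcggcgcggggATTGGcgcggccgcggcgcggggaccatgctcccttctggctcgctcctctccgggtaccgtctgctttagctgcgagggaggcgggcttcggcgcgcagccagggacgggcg
A430035B10Rik promoter (chr6:8509112-8509411, minus strand): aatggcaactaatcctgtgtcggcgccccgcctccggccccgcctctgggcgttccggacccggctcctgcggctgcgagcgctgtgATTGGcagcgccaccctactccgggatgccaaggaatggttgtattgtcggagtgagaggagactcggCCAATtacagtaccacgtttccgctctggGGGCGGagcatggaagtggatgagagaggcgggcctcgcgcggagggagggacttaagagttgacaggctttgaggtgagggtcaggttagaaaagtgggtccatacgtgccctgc
Each of the 3 held 2 CCAAT words, and the third also held 1 GGGCGG. Their GC content was 65%, 76.7% and 62.3%. Of all 32851 promoter windows in the table, 37.4% held CCAAT and 35.7% held GGGCGG on either strand, against 39.3% and 43.8% of the 486 windows of the non-coding symbols and 42.9% and 46.9% of the 49 windows of symbols with a probe called lower. TATAAA was in 13.6%, 10.1% and 4.08%, and CACGTG in 7.15%, 8.85% and 8.16%, of the same 3 sets. The median GC content of a window was 52.7%, 55.2% and 61%, and the median number of CG pairs was 7, 12 and 19. These shares are descriptions, and a match is not a binding site.

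The 2 other partners that fell were a gene overlapped on the same strand and the gene nearest to an RNA. E030003E18Rik overlaps Aldh1a1, the retinaldehyde dehydrogenase that makes retinoic acid, on the same strand, and it fell 2.99-fold (-1.58 ± 0.29, limma adjusted p = 0.0422). Aldh1a1 fell by 1.32 ± 0.24 (limma adjusted p = 0.0428), and on 1 strand the probe cannot tell a separate RNA from an extended Aldh1a1 transcript. The nearest-gene pair is 1700108F19Rik and Serp2, given above. For the 12 called falls that overlap a coding gene on the opposite strand, 0 of the coding genes were called, and their median difference was 0.12.

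2 of the 3 called rises with a tested partner lie antisense to a coding gene that rose too. E230016K23Rik overlaps Ccl6, a chemokine gene of macrophages, which rose by 1.08 ± 0.20 (limma adjusted p = 0.0430). 1110046J04Rik overlaps Serpinb6a, an intracellular protease inhibitor gene, which rose by 0.75 ± 0.14 (limma adjusted p = 0.0451). The macrophage markers moved the same way. The part of the coding transcript in the signal of the antisense probe was not tested.

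By name and description 1 of 24 probes of host genes of small RNAs was lower (4.17%, against 3.15% of all tested probes). Among 12 tested snoRNA host genes, whose introns carry the guide RNAs that modify ribosomal and spliceosomal RNA, 1 fell and 0 rose, 7 differences were positive and the median was 0.12. The fall was Snhg14, the long imprinted transcript of the Snrpn and Ube3a region from which snoRNA clusters are cut. It went from -0.05, -0.27 and -0.43 to -2.33, -1.48 and -1.58, a 2.92-fold fall (-1.55 ± 0.25, limma adjusted p = 0.0358). Snrpn (-1.40, limma adjusted p = 0.115) and Snurf (-1.18, limma adjusted p = 0.0914), at the start of the same domain, were not called, nor was Ube3a on the other strand (0.11, limma adjusted p = 0.554). The other 11 host genes lay between -0.32 for Snhg18 and 0.34 for 1110038B12Rik, with Gas5 at 0.11 ± 0.13, and none was called.

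Among 12 tested microRNA host genes 1 fell and 0 rose, 6 differences were positive and the median was -0.07. Of all tested probes 3.15% were lower and 1.84% higher, and 1 call is too few to describe the list. The fall was Carmn, which hosts the microRNAs miR-143 and miR-145 and is a transcript of smooth muscle. Its levels were 3.83, 3.76 and 3.91 for Sham and 1.92, 2.67 and 2.75 for DJB without overlap, and the fall was 2.62-fold (-1.39 ± 0.23, limma adjusted p = 0.0375). 3 of 4 smooth muscle genes, chosen after their values were seen, fell with it. These were Acta2 (-2.40, limma adjusted p = 0.00554; its 4 probes ranged from -3.22 to 0.07), Myh11 (-2.10, limma adjusted p = 0.0303) and Cnn1 (-2.61, limma adjusted p = 0.0479), and Tagln gave -0.87 (limma adjusted p = 0.0810). The part of smooth muscle content in the fall of Carmn was not tested.

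Mir100hg, the host of miR-100 and miR-125b, was close to the threshold. The probe that stands for it went from 3.20, 3.14 and 3.16 to 2.63, 2.58 and 2.14, without overlap, and the difference was -0.71 ± 0.16 (limma adjusted p = 0.0563). Its 4 probes ranged from -2.09 to -0.35, and all were negative. The paralogous host Mir99ahg gave -0.78 ± 0.23 (limma adjusted p = 0.0929), and its other probe gave -0.22 ± 0.22 (limma adjusted p = 0.552). The array did not measure the mature microRNAs. 2 of them lie inside the Mir100hg gene on chromosome 9 and are shown with the seed, bases 2 to 8, in capitals, since the seeds place them in different families (RefSeq, GRCm38.p6).
miR-100-5p: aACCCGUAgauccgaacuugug
miR-125b-5p: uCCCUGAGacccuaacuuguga

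Among 9 tested imprinted non-coding RNAs 1 fell (Snhg14) and 0 rose, with a median of 0.02. Of all tested probes 3.15% were lower and 1.84% higher, so 1 call says little about this list. Meg3, the maternally expressed RNA of the Dlk1 and Dio3 domain, went from 3.97, 4.84 and 4.73 to 5.57, 5.15 and 5.10, and its 6 probes gave 0.68 to 0.97. All DJB arrays were above all Sham arrays for the probe that stands for it, but none of the 6 was called (limma adjusted p = 0.133 for that probe). Rian of the same domain gave 1.36 ± 0.44 (limma adjusted p = 0.113), and Dlk1, its paternally expressed coding gene and a marker of preadipocytes, gave -1.54 ± 0.53 (limma adjusted p = 0.129). H19 gave 0.55 ± 0.86, Kcnq1ot1 -0.13 ± 0.14, Airn 0.02 ± 0.29, Peg13 -0.18 ± 0.14 and Dio3os -0.76 ± 0.37.

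The abundant nuclear and structural RNAs were not called. Among the 6 nuclear RNAs tested, Malat1 and Neat1, which mark nuclear speckles and build paraspeckles, gave 0.13 ± 0.10 and 0.22 ± 0.15. Norad, a cytoplasmic RNA that binds Pumilio proteins, gave 0.26 ± 0.11 and 0.53 ± 0.14 at its 2 probes, Tug1 0.12 ± 0.15 and Oip5os1 0.00 ± 0.11. The median of the list was 0.12. All 5 tested RNAs of the RNA polymerase III and small nuclear RNA list were positive and uncalled, with a median of 0.42. Of these only Rmrp is a polymerase III product (0.42 ± 0.11, limma adjusted p = 0.0802). Terc, the telomerase RNA, gave 1.01 ± 0.38, and Rn45s, Rn18s and Rn28s1, which come from the ribosomal RNA precursor, gave 0.42 ± 0.23, 0.28 ± 0.12 and 0.24 ± 0.14.

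In the list of RNAs linked with inflammation or p53, 0 of 8 were called, 6 were positive and the median was 0.16. Lockd, transcribed downstream of the cell cycle inhibitor gene Cdkn1b, gave 0.75 ± 0.19 (limma adjusted p = 0.0743). Morrbid, which controls the lifespan of short-lived myeloid cells in mice, gave 0.59 ± 0.21 (limma adjusted p = 0.129), beside the higher macrophage markers. In the list linked with adipocytes and muscle 0 of 7 were called and the median was 0.15. Lncbate1, an lncRNA of brown adipocytes in mice, went from 0.02, -0.84 and -0.51 to -2.57, -1.37 and -1.58, without overlap but not called (-1.40 ± 0.37, limma adjusted p = 0.0778). Of the HOX cluster list only Hoxd3os1 was tested (-1.33 ± 0.29, limma adjusted p = 0.0555). Of the list of X-inactivation RNAs, Ftx of the X-inactivation centre gave -0.29 ± 0.11, and 0.01 ± 0.25 at its other probe. Firre, which lies elsewhere on the X chromosome, gave -0.44 ± 0.13, and neither RNA was called. The probes of Xist and Tsix were not well above background on any array.

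Where a symbol had several probes they mostly moved together. Of 138 such symbols 109 had the same sign at all their probes. For the 18 with a called probe the sign was the same in all 18, and every probe was called in 8 of them. Probes of 1 symbol can share bases, as the pairs printed above do, so such agreement is not independent. The 18 symbols were also selected by a called difference. A930004D18Rik, whose probe pair is shown above, gave -1.07 and -1.03 (limma adjusted p = 0.0302 and 0.0305). Gm11627 gave -1.60 and -1.74 (limma adjusted p = 0.0313 and 0.0235), and D930048N14Rik gave -1.60 and -1.59 (limma adjusted p = 0.0405 and 0.0489). The exceptions in size were 1700001G17Rik, where probes sharing 48 of 60 bases gave -1.31 (limma adjusted p = 0.0437) and -0.27 (limma adjusted p = 0.239), and Gm20619, which gave -2.24 (limma adjusted p = 0.0439) and -0.23 (limma adjusted p = 0.355). The called probe of each was well above background on 1 DJB array, and both calls were lost with normexp. These 5 symbols were chosen after their values were seen.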

How the data were processed

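Total RNA of 6 samples was labelled with Cy3 and each hybridised to 1 single-colour array, per the labels. Signal intensity was background-subtracted and detrended within the array by Agilent Feature Extraction, per the file headers, which also name the build mm9; the 0 or 1 flags for spots well above background came from the same deposited files. The log2 values in the authors' deposited table look quantile-normalized, since their sorted columns are nearly alike; its scale and centring are not stated, and it was used as an alternative.

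The log2 of the processed intensity minus each array's 75th percentile was fitted with limma 3.58.1 (lmFit and eBayes, R 4.3.3) on the 99431 non-control probes well above background on at least 3 of 6 arrays, with no covariate. P-values were adjusted by Benjamini-Hochberg over all of them. Spots marked as outliers (18 to 25 per array) were left out, and 0 spots were saturated. The number of arrays limits the precision. In a simulation of 6 arrays, values were drawn independently for each probe from the means and spread of these data. Far fewer probes were changed than were called here. The fit recovered 13% of changes of size 1 and 64% of size 2 (log2), with 4 false calls. These rates belong to that setting and may differ where probes vary together or more of them change.

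Of the 829 probes, 785 matched the RefSeq table by accession and 807 by accession or symbol; the files named 290 by accession alone, and the table gave their symbols where it could. Named symbols were the 10 largest called falls and rises without overlap, up to 5 further called symbols per type and direction, the tested members of the lists, and antisense pairs with a called member. Members, lists and marker lists were chosen with earlier results of these data known. Alternatives changed the background correction, normalization, filter, prior, slide, replicate block, probe summary and arrays used.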

Additional observations from a re-analysis of the deposited data

How the results depend on the processing

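The counts of called non-coding probes were 8 higher and 67 lower. The higher count was 35 with normexp background correction, 16 with probes well above background on all arrays and 29 with a trended robust prior, and it was 0 without a filter, 0 with the slide as a block and 0 on slide 1 alone. The lower count was 44 with scaling to the median, 8 without a filter, 9 with the slide as a block and 0 on slide 1 alone, where 160 probes were lower and 62 higher by limma at an unadjusted p under 0.05. It was 71 with normexp, 63 with quantile normalization, 63 in the authors' values, 77 with probes above background on all arrays and 98 with the trended prior. Of the 67 main falls, 44 were still called with normexp, 61 with quantile normalization, 43 with scaling to the median and 66 with the trended prior. With 1 array left out at a time, the higher count ranged from 0 to 5, the lower count from 0 to 49 and the median difference from -0.12 to -0.05. The median was 0.058 with normexp, 0.024 with scaling to the median, and -0.0051 without a filter, against -0.08. Scaling to the median raised the median of all tested probes from 0.08 to 0.19, and the non-coding median lay 0.16 below it in both. The fit with a replicate block called 0 probes in either direction (53 higher and 173 lower by limma at an unadjusted p under 0.05), and same-numbered arrays did not deviate together (r = -0.18, -0.12 and -0.29), so the numbers were not taken as pairs. Of 30 named calls, 26 held in the authors' values, 27 with the mean of a symbol's probes, 24 with scaling to the median, 19 with normexp, 6 with the slide as a block and 0 with the replicate block. Of 47 named uncalled symbols, 8 were called with normexp, 4 with the trended prior and 2 with the stricter filter. Fewer arrays leave fewer residual degrees of freedom, and a weaker filter adds probes near background to the fit; other causes were not tested.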
